A study of Mus musculus with 15 samples.

Results

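The genes described here were the 5 mouse genes of store-operated calcium entry, Stim1, Stim2, Orai1, Orai2 and Orai3, out of 55536 annotated genes in the deposited count tables. They were chosen by name, and Orai2 was picked because its annotated transcripts switched in these libraries. RNA was sequenced from CD8+ OT-I T cells, which carry a transgenic T cell receptor against an ovalbumin peptide, on the C57BL/6J background. Naive cells (n = 5 libraries) came from OT-I mice whose cells were not transferred. Ag cells (n = 5) had been transferred into C57BL/6J recipients that received the ovalbumin peptide with control rat IgG, and Ag+Costim cells (n = 5) had been transferred into recipients that received the agonist antibodies anti-OX40 (CD134) and anti-41BB (CD137) with the antigen. By the labels the transferred cells were collected from spleen and lymph nodes on day 4. The study's methods describe the OT-I donor mice as Rag1-/- or Rag2-/- and the mice as female and male, without giving sex or age by library, and the transferred cells as sorted on CD8, CD45.1 and the transgenic receptor chains. They place the collection slightly earlier than the labels do. The Naive cells differed from the other groups in transfer and host as well as in antigen.

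STIM proteins sit in the membrane of the endoplasmic reticulum and sense how much calcium the store holds. When T cell receptor signalling empties the store, they move to the plasma membrane and open channels built of ORAI subunits, and the calcium that enters activates calcineurin and, through it, NFAT. STIM1 and ORAI1 are known as the main pair in T cells, STIM2 as the sensor that responds to smaller losses of store calcium, and ORAI2 as a subunit that can assemble with ORAI1 and dampen the current.

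The libraries held 4865952 to 25280667 estimated counts, with a median of 14967616. Ag 3 was the smallest, and 16.9% of its reads were counted against 37.4% to 53.6% in the other 14 libraries. All Naive libraries were sequenced in lane 3 and all Ag libraries in lane 2, so lane and group cannot be told apart between them, while Ag+Costim 1 to 3 were in lane 2 and Ag+Costim 4 and 5 in lane 3. The Ag libraries did not form a single cluster. On the first principal component, which held 53.3% of the variance of log2 CPM, Ag 2 and Ag 5 (87.8 and 109) lay with Ag+Costim (67.8 to 92.1), and Ag 1, Ag 3 and Ag 4 (-75.7 to -56.8) lay near 4 of the Naive libraries (-113 to -74.3). Naive 5 lay between them at 2.03.

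The cells carried the markers of their label. Cd8a stood at 439 to 935 CPM (counts per 1000000 counts of a library, with library sizes scaled by TMM) in the 15 libraries, and Cd4 at 0 to 4.79 CPM. Summed over 8 B cell markers the level was 582 to 975 CPM in Naive, 603 to 1400 in the Ag group and 503 to 748 in Ag+Costim. Rag-deficient mice lack mature B cells, yet the Naive range overlapped those of the groups taken from C57BL/6J recipients, and the labels do not give the Rag genotype of the Naive donors. Over 9 myeloid markers it was 1124 CPM in Naive 5 against 82.7 to 269 in the other Naive libraries, 151 to 324 in Ag and 195 to 291 in Ag+Costim. The 5 erythroid markers summed to 1309 CPM in Ag 3 and to at most 152 CPM in any other library, and the 3 NK cell markers to 4.15 to 72 CPM. No marker of these lists was at 0 in every library of a group, and the part of other cell types in the results below was not tested.

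All 5 genes were detected in every library and passed the filter on low counts. Compared per length (transcript counts per kilobase, scaled to the same total in each library), Stim1 was highest in each group. Its mean per-kilobase level was 89.3 ± 27.6 in Naive, 44.9 ± 23.4 in the Ag group and 37.1 ± 3.04 in Ag+Costim (SD, n = 5). Orai2 came next, with per-kilobase levels of 80.5 ± 28.1, 43 ± 29.6 and 31.3 ± 3.48. The ranges of Stim1 and Orai2 overlapped in each group, although Stim1 was the higher of the pair within all 5 Naive, 3 of 5 Ag and all 5 Ag+Costim libraries.

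Orai1 and Orai3 followed, with overlapping ranges, and the mean of Stim2 was lowest in each group. The per-kilobase level of Orai3 was 22.2 ± 3.91 in Naive, 24.1 ± 11.9 in the Ag group and 16 ± 1.81 in Ag+Costim. The ranges of Orai3 and Stim2 overlapped in Ag and in Ag+Costim. Orai3 was the higher of that pair in all 5 Ag but 4 of 5 Ag+Costim libraries. The per-kilobase level of Orai1 was 26.1 ± 3.6 in Naive, 27.9 ± 11.3 in the Ag group and 19.7 ± 4.94 in Ag+Costim, and that of Stim2 was 11.4 ± 4.18, 12 ± 2.34 and 13.5 ± 3.05. Orai2 and Orai1 did not overlap in Naive or in Ag+Costim. Orai2 held the largest part of the summed per-kilobase Orai level, at 61.1% ± 7.98 in Naive, 42.4% ± 6.36 in the Ag group and 46.9% ± 2.98 in Ag+Costim. These parts depend on how the Orai2 counts were divided between transcripts of unlike length.

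As a description without a test, the mean ratios of Stim2 to Stim1 and of Orai2 to Orai1 differed between the groups. That of Orai3 to Orai1 was similar in all groups. The ratios restate the per-kilobase levels above. The per-kilobase ratio of Stim2 to Stim1 was 0.085, 0.155, 0.0861, 0.0876 and 0.351 in Naive 1 to 5, against 0.289 to 0.512 in Ag+Costim and 0.2 to 0.448 in Ag. Naive 5 was the 1 Naive library whose ratio fell inside the Ag and Ag+Costim ranges. The ratio of Orai2 to Orai1 was 3.07 ± 0.94 in Naive, 1.41 ± 0.441 in the Ag group and 1.65 ± 0.317 in Ag+Costim, and that of Orai3 to Orai1 was 0.849 ± 0.0696, 0.854 ± 0.145 and 0.84 ± 0.149. The Orai2 ratio depends on the division of counts between transcripts. The short transcript Orai2-203 (693 bases) held 0.055 of the Orai2 counts in Ag+Costim but 0.245 of its per-kilobase level. In Ag it held 0.021 and 0.103. Without scaling to length, mean gene CPM in Naive, Ag and Ag+Costim was 166, 98 and 66.2 for Orai2. For Orai1 it was 29.5, 34.9 and 24.8.

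**Figure D1:**
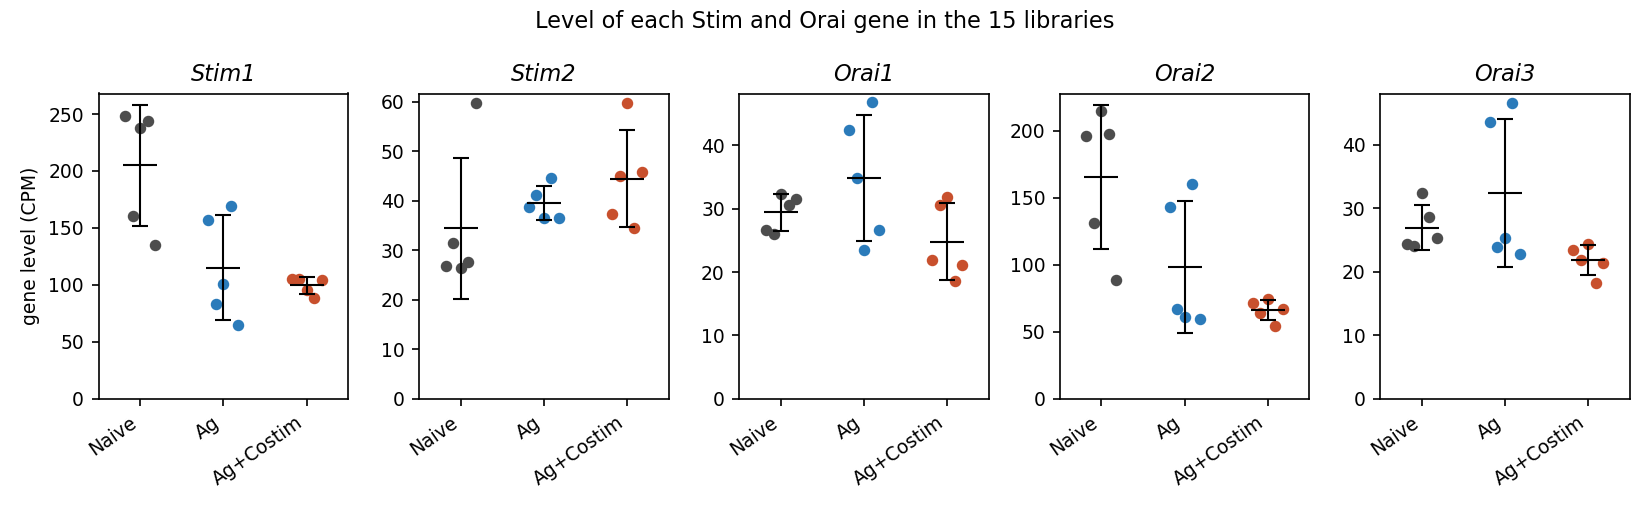
Gene level of Stim1, Stim2, Orai1, Orai2 and Orai3 in CPM (y axis, from 0, a scale of its own for each gene) by group; each point is 1 library, left to right in order of replicate number, and the bars are mean ± SD (n = 5). Stim1 and Orai2 in the 5 Ag+Costim libraries lie below all 5 Naive libraries, and Naive 5 stands apart for Stim2 at 59.7 CPM.

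The first question was whether the level of each gene differed between groups. In Ag+Costim against Naive, 2 of the 5 genes fell (Stim1 and Orai2, edgeR FDR under 0.05) and none rose. Of the 17366 genes tested, 23.6% fell and 21.0% rose there (44.7% together), so calls in either direction were common. In that comparison DESeq2 called the same number lower (beside 53.0% of all genes called in either direction) and limma voom called 3 lower and 1 higher (beside 77.9%). In Ag against Naive, 0 of the 5 passed in edgeR, beside 6.71% of all genes (3.05% higher and 3.66% lower). Of the 5, 2 had an unadjusted p under 0.05 (edgeR), beside 4980 of the 17366 genes. DESeq2 called 1 (Stim1, beside 15.8% of genes) and limma voom called 2 (Stim1 lower and Orai3 higher, beside 23.3%). In Ag+Costim against Ag, 0 of the 4 genes tested passed in edgeR, beside 0.0346% of all genes (0.0288% higher and 0.00576% lower). That background rested on single libraries, since edgeR called 965 genes higher and 1714 lower without Ag 2, and 756 and 2817 without Ag 5. Of the 4, 2 had an unadjusted p under 0.05 (edgeR), beside 4647 of the 17366 genes. DESeq2 called 0 (beside 14.6%) and limma voom called 3 lower (Orai1, Orai3 and Stim1, beside 64.5%). The CPM ranges of the groups did not overlap for 2 of the 5 genes in Ag+Costim against Naive, where this held for 45.0% of all genes, and for 0 of 5 in Ag against Naive (3.85%) and in Ag+Costim against Ag (6.33%). The 3 comparisons share their groups pairwise, so their results are not independent of each other. In bulk RNA, fewer cells that carry a transcript and less of it per cell cannot be told apart.

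Stim1, the main store sensor, was lower in Ag+Costim than in Naive. Its level was 248, 160, 238, 244 and 135 CPM in Naive 1 to 5 and 105, 105, 95.2, 88.6 and 104 CPM in Ag+Costim 1 to 5. All 5 Ag+Costim libraries lay below all 5 Naive libraries, which held in the same direction for 22.3% of all genes. The difference was -1.04 ± 0.25 (log2, SE), a level 2.06-fold lower, with FDR = 0.00891 (edgeR). Within lane 3 alone, 5 Naive against 2 Ag+Costim libraries, it was -1.10 ± 0.31 with FDR = 0.034 (edgeR), but with lane as a term it no longer passed (-1.09 ± 0.36, FDR = 0.0631), nor without the filter on low counts (-0.89 ± 0.29, FDR = 0.0631).

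The Ag libraries were spread over both ranges for Stim1. They stood at 157, 83.5, 101, 169 and 65 CPM in Ag 1 to 5, so Ag 1 and Ag 4 reached the Naive range and Ag 2, Ag 3 and Ag 5 lay below it. Against Naive the difference was -0.83 ± 0.25 (log2, SE) with FDR = 0.0573 (edgeR). It passed when Naive 5 (-0.95), Ag 1 (-0.98) or Ag 4 (-1.01) was left out, with FDR between 0.0185 and 0.171 over all single omissions (edgeR), and with the replicate block (-0.87 ± 0.21, FDR = 0.033). Against Ag, Ag+Costim differed by -0.21 ± 0.25, FDR = 0.6 (edgeR), with an approximate 95% interval of -0.69 to 0.28.

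Stim1 (chromosome 7, 102267806 to 102437319, plus strand, GRCm38) has 9 annotated transcripts, and 3 of them reached a mean share of 0.05 of the gene's counts. Stim1-201 has 12 exons and a coding sequence of 2055 bases. Stim1-202, with a longer coding sequence of 2379 bases, held a mean share of at most 0.008 in any group. Stim1-208 is a single exon of 3837 bases that runs from the first exon into the first intron and has no coding sequence, and Stim1-203 is a retained-intron transcript of 2504 bases over the first 3 exons, also without coding sequence. Of their bases, 80.7% and 60.8% lie in no other Stim1 transcript.

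Both retained-intron transcripts held a lower mean share of Stim1 in Ag and Ag+Costim than in Naive. Stim1-208 held 0.280, 0.249, 0.164, 0.270 and 0.112 of the Stim1 counts in Naive 1 to 5, a mean share of 0.215 ± 0.073, against 0.094 ± 0.064 in Ag and 0.089 ± 0.023 in Ag+Costim. Naive 5 was the lowest Naive library and fell inside the ranges of Ag (0.026 to 0.165) and Ag+Costim (0.069 to 0.122). The percent of reads counted was 39.7, 38.2, 46.8, 41.1 and 46.5 in Naive 1 to 5 and 51.9 to 52.7 in Ag+Costim. In Ag 1 to 5 it was 37.4, 52.4, 16.9, 44.3 and 53.6, with Stim1-208 shares of 0.155, 0.042, 0.080, 0.165 and 0.026. Whether the retained-intron shares followed the percent of reads counted was not tested. Stim1-203 held a mean share of 0.086 ± 0.024 in Naive, 0.063 ± 0.017 in the Ag group and 0.031 ± 0.006 in Ag+Costim, where the highest library (0.041) was below the lowest Naive library (0.055).

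Stim1-201 correspondingly held a mean share of 0.683 ± 0.085 in Naive, 0.837 ± 0.077 in the Ag group and 0.878 ± 0.028 in Ag+Costim. The 5 Ag+Costim libraries (0.835 to 0.899) lay above the 5 Naive libraries (0.602 to 0.803), a difference of 0.195 with p = 0.00794 in an exact two-sided permutation test, the smallest p that 5 against 5 allows, and 0.0952 after adjustment over the 12 comparisons of leading transcripts. In the test of transcript usage across 7501 genes, Stim1 did not pass in any comparison (edgeR diffSpliceDGE). Its FDR was 1 in Ag against Naive and in Ag+Costim against Ag, where 0.547% and 0.933% of genes were called, and 0.724 in Ag+Costim against Naive, beside 1.01%. It passed there with limma's diffSplice (FDR = 0.00909, beside 16.9% of genes) and without the filter on low counts (FDR = 0.00806, edgeR, beside 4.70%). The percentages 16.9% and 4.70% count genes by FDR alone. The earlier ones also required a transcript at FDR under 0.05 with a share change of at least 0.1.

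In CPM, Stim1-201 itself was 138 ± 31.2 in Naive and 87.4 ± 5.43 in Ag+Costim, and Stim1-208 was 45.9 ± 22.2 and 8.91 ± 2.8 (SD, n = 5). For Stim1-201, all 5 Ag+Costim libraries (79.3 to 93.4 CPM) lay below the lowest Naive library (103 CPM).

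**Figure D2:**
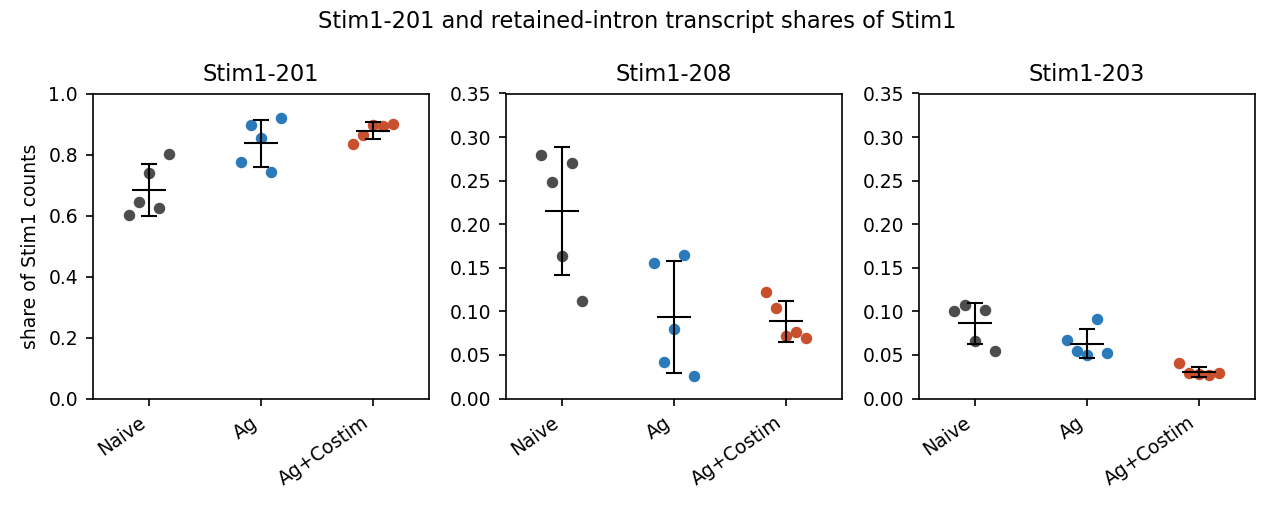
Share of the Stim1 counts (y axis, no unit, a different scale in the first panel) held by the coding transcript Stim1-201 and the retained-intron transcripts Stim1-208 and Stim1-203, by group; points are libraries and bars mean ± SD (n = 5). The mean Stim1-201 share is 0.683 in Naive and 0.878 in Ag+Costim, and the mean Stim1-208 share 0.215 and 0.089.

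Stim2, the other store sensor, passed in no comparison over all 15 libraries in edgeR. It stood at 26.8, 31.5, 26.3, 27.7 and 59.7 CPM in Naive 1 to 5, at 36.6 to 44.6 CPM in Ag and at 37.4, 44.9, 59.7, 34.4 and 45.9 CPM in Ag+Costim 1 to 5. Naive 5, the library with the high myeloid marker sum, was as high as the highest Ag+Costim library, and the other 4 Naive libraries lay below every Ag and Ag+Costim library. Ag+Costim against Naive gave 0.37 ± 0.22 (log2, SE) with FDR = 0.169 (edgeR). It passed there in limma voom over the same libraries (0.64 ± 0.14, FDR = 0.000794), and without Naive 5 in edgeR (0.68, FDR = 0.00321). Ag against Naive gave 0.20 ± 0.22 with FDR = 0.54, and without Naive 5 it gave 0.50 with FDR = 0.0315 (edgeR). Ag+Costim against Ag gave 0.17 ± 0.22 with FDR = 0.635 (edgeR) and an approximate 95% interval of -0.26 to 0.60.

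Stim2 (chromosome 5, 53998499 to 54121057, plus strand, GRCm38) was nearly all Stim2-201 in 14 libraries, with shares of 0.976 to 0.999. Ag 2 was the exception. There Stim2-204 took 482 of the 597 Stim2 counts, 80.7% (Wilson 95% interval 77.4 to 83.7), and Stim2-201 took a share of 0.189. Stim2-204 had 8 counts in Naive 1 and at most 2 in any other library, and none in Ag+Costim, where a count of 0 allows a share of up to 0.353% to 0.566%. These intervals and limits cover counting error only, and not the division of reads between overlapping transcripts. Stim2-204 has 24 bases that lie in no other Stim2 transcript and Stim2-201 has 66, so their estimated counts rest on few bases.

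In its coding part Stim2-204 differs from Stim2-201 by a single additional exon of 24 bases, 8 codons in frame, at chr5:54110116-54110139 on the plus strand of GRCm38. A STIM2 form with a short in-frame insert is known as an inhibitor of store-operated entry. The exon is shown because its bases lie in no other Stim2 transcript. In capitals is the exon, in lower case the 3 bases on either side in the spliced transcript.
Stim2-204: gagGTCGCTGCCTCCTATCTCCTGCAGgca

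The exact two-sided permutation tests of the Stim2-201 share gave p = 0.595 for Ag against Naive and p = 0.524 for Ag+Costim against Ag. Without Ag 2 the share differences were 0.002 and -0.001 in place of -0.159 and 0.160. Across all genes the usage test did not include Stim2, since a single transcript passed its filter. Without that filter Stim2 passed in Ag+Costim against Ag (FDR = 0.00547, edgeR diffSpliceDGE, beside 3.64% of genes by FDR alone), a comparison in which Ag 2 was the 1 library with Stim2-204 above 1 count.

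Orai1, the main pore subunit, varied most within the Ag group. It stood at 26.7, 26, 32.4, 30.6 and 31.6 CPM in Naive 1 to 5, at 42.5, 34.9, 23.5, 46.8 and 26.7 CPM in Ag 1 to 5 and at 21.9, 30.6, 31.9, 18.5 and 21.1 CPM in Ag+Costim 1 to 5. All ranges overlapped, and Ag 1 and Ag 4 were the highest of the 15 libraries. Ag+Costim against Ag gave -0.50 ± 0.20 (log2, SE) with FDR = 0.139 (edgeR), and limma voom gave -0.78 ± 0.19 with FDR = 0.00232. Ag+Costim against Naive gave -0.25 ± 0.20 with FDR = 0.304 and an approximate 95% interval of -0.64 to 0.14, and within lane 3 it was -0.58 ± 0.17 with FDR = 0.0382 (edgeR). Ag against Naive gave 0.25 ± 0.20 with FDR = 0.405 (edgeR), which turned to -0.26 ± 0.33 with lane as a term.

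Orai1 (chromosome 5, 123015074 to 123030456, plus strand, GRCm38) was held almost wholly by Orai1-202, with a mean share of 0.970 ± 0.008 in Naive, 0.972 ± 0.020 in the Ag group and 0.980 ± 0.013 in Ag+Costim. Its share differences of 0.002 to 0.010 had p = 0.183 to 0.857 in exact permutation tests. Orai1 shares 7 exonic bases with the antisense gene Gm2479, whose reads cannot be told apart from its own in a library kit that does not mark strand.

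Orai2, a subunit that can assemble with ORAI1, was lower in Ag+Costim than in Naive. It stood at 196, 131, 215, 198 and 88.3 CPM in Naive 1 to 5, at 143, 67.2, 61, 160 and 59.2 CPM in Ag 1 to 5 and at 71.1, 64.3, 74.5, 54.3 and 66.7 CPM in Ag+Costim 1 to 5. The Ag+Costim range lay wholly below the Naive range, and in Ag the same pair, Ag 1 and Ag 4, stood with Naive while Ag 2, Ag 3 and Ag 5 stood with Ag+Costim.

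Against Naive the gene level of Orai2 in Ag+Costim differed by -1.32 ± 0.31 (log2, SE), 2.5-fold lower, with FDR = 0.00828 (edgeR). Within lane 3 it was -1.46 ± 0.39 with FDR = 0.0311, and with lane as a term it no longer passed (-1.45 ± 0.45, FDR = 0.0591). Ag against Naive gave -0.76 ± 0.31 with FDR = 0.128 (edgeR), and it passed when Naive 5 (-0.91) or Ag 4 (-1.0) was left out. Between Ag+Costim and Ag, where an earlier analysis of these libraries had called its transcript switch, the gene-level difference was -0.57 ± 0.31 and is given without a test. The comparisons with Naive share libraries with that choice, so their tests are not independent of it.

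**Figure D3:**
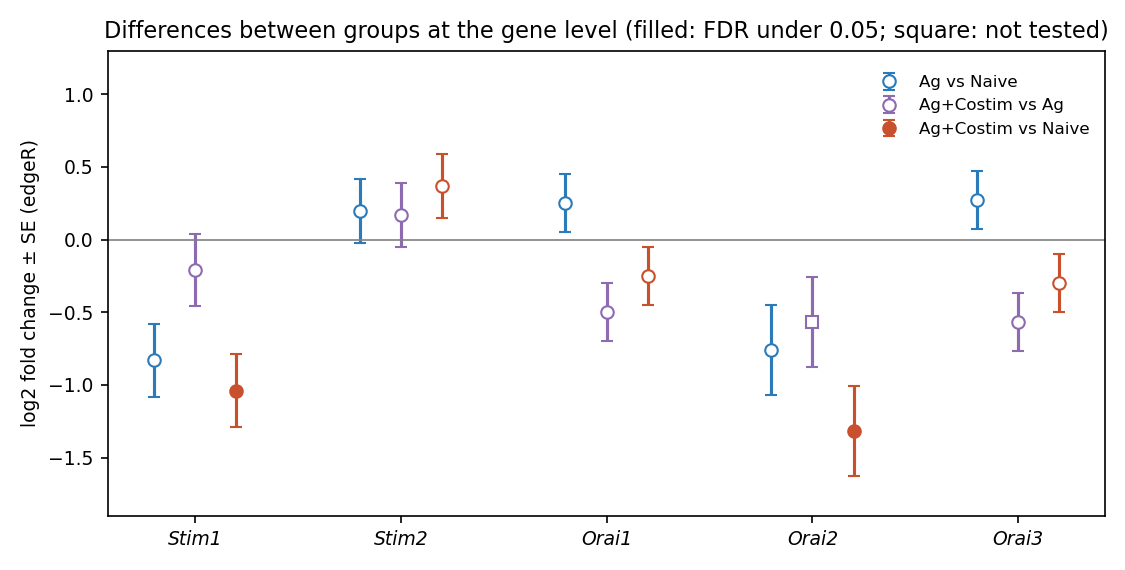
Difference in gene level between groups (y axis, log2 fold change from edgeR, bars ± SE) for the 5 genes and 3 comparisons; filled points have FDR under 0.05, open points do not, and the open square (Orai2 in Ag+Costim vs Ag) was not tested. The filled points are Stim1 at -1.04 and Orai2 at -1.32, both in Ag+Costim vs Naive.

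Orai2 (chromosome 5, 136147459 to 136170713, minus strand, GRCm38) has 4 annotated transcripts, and the switch lay between Orai2-201 and Orai2-202. Both use the same first exon region, the same second-to-last exon of 238 bases and the same last exon, and share 3818 bases. Orai2-202 has, between these, an additional exon of 109 bases (chr5:136168366-136168474) and another of 63 bases (chr5:136167825-136167887), 172 bases that Orai2-201 lacks. Orai2-201 has 90 bases that Orai2-202 lacks, nearly all at the 5′ end of its first exon.

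The additional exons carry an upstream start codon. Orai2-201 starts translation in the exon of 238 bases and has 750 coding bases. Orai2-202 starts in the 63-base exon and has 792, so its annotated protein begins 14 codons earlier in the same frame and is otherwise the same. The following sequences, read 5′ to 3′ on the minus strand of GRCm38, show where the reading frames start, with the start codons in capitals. They are the last 29 bases of the 63-base exon (chr5:136167825-136167853), which are coding in Orai2-202, and the first 30 bases of the 238-base exon (chr5:136161695-136161724), which follows it directly in Orai2-202 and in which Orai2-201 starts.
Orai2-202 start: ATGaagaagggagagacacacagacacag
Orai2-201 start: cctggtccccaccATGagtgcagagctcaa

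The shares of these transcripts are the values for which Orai2 was chosen and are described without a test. Orai2-202 took 2765, 1227, 4925, 2511 and 869 counts in Naive 1 to 5, which were shares of 0.904, 0.738, 0.855, 0.882 and 0.654 of the Orai2 counts. It took 0 counts in each of the 5 Ag+Costim libraries, out of 791 to 1073 Orai2 counts a library, which allows a share of up to 0.280% to 0.379%. There Orai2-201 held shares of 0.924 to 0.945. Naive and Ag+Costim did not overlap in either share. For transcript shares and levels, here and for Stim1, how many of all transcripts separate in this way was not counted. The limit on a count of 0 covers counting error only, and not the division of reads between overlapping transcripts.

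In the Ag group the libraries differed widely in their transcripts. Orai2-202 took 1452, 0, 4, 1343 and 915 counts in Ag 1 to 5, shares of 0.877, 0.000, 0.014, 0.601 and 0.967. Ag 1, Ag 4 and Ag 5 were thus mostly Orai2-202, as in Naive, and Ag 2 and Ag 3 mostly Orai2-201, as in Ag+Costim. Ag 1 and Ag 4 had the higher gene levels of Orai2 (143 and 160 CPM), and Ag 2 and Ag 3 lower ones (67.2 and 61 CPM). In Naive, the libraries with the lowest levels, Naive 5 (88.3 CPM) and Naive 2 (131 CPM), also had the lowest Orai2-202 shares. Ag 5 departed from this. Its Orai2 level was the lowest of the Ag libraries at 59.2 CPM, and its Orai2-202 share was the highest of the 15 libraries. Its score on the first principal component, 109, was also the highest of all libraries. Ag 3 lay near Naive on that component (-69.4) but was mostly Orai2-201. Whether the share followed either was not tested. The mean Orai2-202 share in Ag was 0.492 ± 0.463. Among the Ag libraries, Ag 4 alone had sizeable shares of both Orai2-202 (0.601) and Orai2-201 (0.327). Naive 2 (0.738 and 0.208) and Naive 5 (0.654 and 0.278) also held both.

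On the CPM scale the levels of the pair stood in opposite order. Orai2-202 was 138 ± 57.2 CPM in Naive and at 0 in Ag+Costim, while Orai2-201 was 16.3 ± 10.5 CPM in Naive and 61.8 ± 7.26 CPM in Ag+Costim (SD, n = 5). All 5 Ag+Costim libraries (50.4 to 69.6 CPM) held more Orai2-201 than any Naive library (2.63 to 27.2 CPM), although the gene as a whole was lower.

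The remaining transcripts share the additional exons. Orai2-203, a shorter coding transcript with the 109-base exon and without the 63-base exon, kept a mean share of 0.033 ± 0.009 in Naive, 0.021 ± 0.022 in the Ag group and 0.055 ± 0.007 in Ag+Costim, with 40 to 61 counts in each Ag+Costim library. It is only 693 bases long, and per kilobase its mean share was 0.161 ± 0.039, 0.103 ± 0.101 and 0.245 ± 0.025. Orai2-204, a retained-intron transcript with both stretches, had 5 to 21 counts in each Ag+Costim library. Transcripts with the 109-base exon together made up 0.874 ± 0.113 of the Orai2 counts in Naive, 0.530 ± 0.460 in the Ag group and 0.067 ± 0.008 in Ag+Costim. Per kilobase their mean share was 0.894 ± 0.093, 0.571 ± 0.432 and 0.261 ± 0.024. Orai2-202 has no base of its own within the gene, since both of its additional exons also lie in other Orai2 transcripts, and Orai2-201 has 84, so the estimated counts of the pair rest on few bases. How much of the switch comes from their division by the counting software was not tested.

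**Figure D4:**
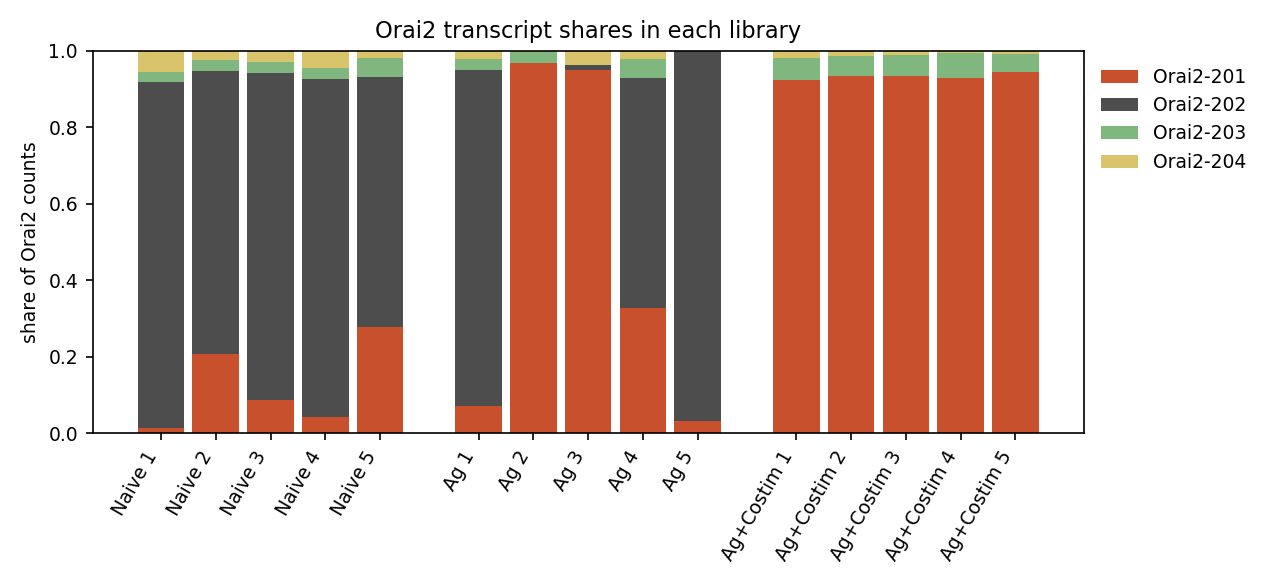
Stacked shares (y axis, from 0 to 1, no unit) of the 4 annotated Orai2 transcripts in the Orai2 counts of each of the 15 libraries. Orai2-202 is the largest segment in Naive 1 to 5, Ag 1, Ag 4 and Ag 5, and Orai2-201 in Ag 2, Ag 3 and Ag+Costim 1 to 5, where Orai2-202 had 0 counts in all 5.

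Orai3, another channel subunit, passed in no comparison over all 15 libraries in edgeR and in all 3 in limma voom. It stood at 24.3, 24.1, 32.5, 28.7 and 25.3 CPM in Naive 1 to 5, at 43.7, 23.9, 25.3, 46.7 and 22.8 CPM in Ag 1 to 5 and at 23.4, 21.9, 24.4, 18.3 and 21.4 CPM in Ag+Costim 1 to 5. As for Orai1, Ag 1 and Ag 4 were the highest libraries, and the ranges of all 3 groups overlapped. Ag+Costim against Ag gave -0.57 ± 0.20 (log2, SE) with FDR = 0.106 (edgeR), which passed without Ag 5 (-0.67, FDR = 0.0351) and in limma voom (-0.92 ± 0.13, FDR = 5.04e-05). Ag+Costim against Naive gave -0.30 ± 0.20 with FDR = 0.22 (edgeR), and -0.36 ± 0.12 with FDR = 0.019 when those 10 libraries were fitted alone. Ag against Naive gave 0.27 ± 0.20 with FDR = 0.367 (edgeR). limma voom gave 0.63 ± 0.15 with FDR = 0.00641 there and -0.29 ± 0.11 with FDR = 0.0256 for Ag+Costim against Naive.

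Orai3 (chromosome 7, 127769815 to 127775150, plus strand, GRCm38) was mostly Orai3-201, with a mean share of 0.964 ± 0.039 in Naive, 0.974 ± 0.025 in the Ag group and 0.937 ± 0.072 in Ag+Costim. Orai3-203, which contains all of Orai3-201's bases and 145 more but has a coding sequence of 408 bases in place of 870, held 0.163 of the counts in Ag+Costim 4, 0.115 in Ag+Costim 2 and 0.103 in Naive 3, and at most 0.071 in the other libraries. Exact permutation tests of the Orai3-201 share gave p = 0.413 to 0.571 for differences of -0.036 to 0.009.

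The second question was how the other genes of T cell calcium signalling behaved beside these 5. Of 82 genes in 6 lists, 71 passed the filter on low counts. In Ag+Costim against Naive, 18 of them rose and 21 fell, 54.9% together, beside 44.7% of all genes. In Ag against Naive 5 rose and 4 fell, 12.7% beside 6.71%. In Ag+Costim against Ag 0 were called by edgeR, beside 0.0346% of all genes. There 17 had an unadjusted p under 0.05 (edgeR), beside 4647 of all 17366 genes, and DESeq2 called 11, beside 14.6%. Without Ag 2 edgeR called 17 there, beside 965 genes higher and 1714 lower of all 18092. Without Ag 5 it called 11, beside 756 higher and 2817 lower of all 18108. For Ag against Naive it called 23 without Naive 5, beside 2270 genes higher and 1601 lower of all 17981. It called 4 there without any 1 of Naive 1, Naive 3, Naive 4 and Ag 2, beside 92 to 260 higher and 163 to 253 lower. Without Ag+Costim 4 it called 5, beside 262 higher and 309 lower. With lane as a term 7 of the 71 passed in Ag+Costim against Naive, beside 258 genes higher and 685 lower of all 17366. In Ag against Naive 0 passed, as over all genes.

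Among genes of store release, the step that precedes store-operated entry, 7 of 11 fell and 0 rose in Ag+Costim against Naive, beside 23.6% and 21.0% of all genes, with a median difference of -1.84 (log2) against -0.08 over all genes. Itpr2, an inositol trisphosphate receptor through which the store releases calcium, was 24.7 ± 5.54 CPM against 167 ± 74.3 CPM (log2 -2.75 ± 0.57, FDR = 0.00532, edgeR). Itpkb, a kinase that converts inositol trisphosphate, was 24.4 ± 2.97 against 87.2 ± 36.6 CPM (-1.84 ± 0.43, FDR = 0.00824, edgeR). In Ag against Naive 1 of the 11 fell, beside 3.66% of all genes. This was the receptor gene Itpr1, at 26.8 ± 9.38 against 59.5 ± 18 CPM (-1.16 ± 0.23, FDR = 0.0148, edgeR).

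Among the regulators of store-operated entry, 4 of 11 rose and 3 fell in Ag+Costim against Naive, beside 21.0% and 23.6% of all genes, with a median difference of 0.11 (log2). Cracr2a, a calcium-binding regulator of the ORAI1 and STIM1 complex, fell from 44.3 ± 14 CPM in Naive to 20 ± 3.85 CPM in Ag+Costim (-1.14 ± 0.23, FDR = 0.00429, edgeR), and was also lower in Ag at 22.7 ± 5.29 CPM (-0.96 ± 0.22, FDR = 0.0245). Cracr2a was the 1 of 11 that passed in Ag against Naive, beside 6.71% of all genes, and 0 passed there without any 1 of Naive 1, Naive 3, Naive 4, Ag 2, Ag 5 or Ag+Costim 4. Without Ag+Costim 4, 4 of the 11 passed in Ag+Costim against Naive. Saraf, which inactivates store-operated entry, fell from 806 ± 169 to 511 ± 58 CPM (-0.66 ± 0.19, FDR = 0.0179, edgeR). Pdia3, a disulfide isomerase of the endoplasmic reticulum, rose from 647 ± 265 to 1365 ± 144 CPM (1.08 ± 0.29, FDR = 0.0133, edgeR). Sept2, a septin, rose from 37.5 ± 40 to 117 ± 5.64 CPM (1.65 ± 0.63, FDR = 0.0459, edgeR).

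Of the mitochondrial calcium genes, in Ag+Costim against Naive 8 of 12 rose and 2 fell, beside 21.0% and 23.6% of all genes, with a median difference of 0.69 (log2). Vdac1, a channel of the outer mitochondrial membrane, stood at 234 ± 20.8 against 74.1 ± 27 CPM (1.66 ± 0.27, FDR = 0.0023, edgeR), and Mcub, a subunit that dampens the mitochondrial uniporter, at 17.7 ± 1.06 against 8.1 ± 3.22 CPM (1.13 ± 0.26, FDR = 0.00808). The genes that fell were Micu3, at 3.14 ± 0.332 against 8.1 ± 2.28 CPM (-1.36 ± 0.36, FDR = 0.013), and Mcur1, at 14.2 ± 3.16 against 20.1 ± 1.5 CPM (-0.50 ± 0.15, FDR = 0.0195, edgeR). In Ag against Naive 3 of 12 rose, beside 3.05% of all genes, among them Mcub (1.34 ± 0.26, FDR = 0.0139) and Smdt1, an essential uniporter subunit (0.78 ± 0.22, FDR = 0.0439, edgeR).

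Of the pumps and exchangers 1 of 6 rose and 1 fell in Ag+Costim against Naive, beside 44.7% of all genes called. Both were calcium pumps of the plasma membrane, and 1 of 6 passed when any 1 of 9 libraries was left out. Atp2b4 stood at 15.3 ± 2.78 against 8.21 ± 5.01 CPM (0.91 ± 0.34, FDR = 0.045, edgeR), and Atp2b1 at 137 ± 14.6 against 249 ± 45.8 CPM (-0.87 ± 0.21, FDR = 0.009, edgeR). Atp2b4 was also the 1 of 6 that passed in Ag against Naive, beside 6.71% of all genes, at 20.1 ± 4.87 CPM in Ag (1.29 ± 0.35, FDR = 0.0393, edgeR). There 0 of 6 passed when any 1 of 12 libraries was left out.

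Downstream of entry, 4 of the 21 calcineurin and NFAT genes rose and 4 fell in Ag+Costim against Naive, beside 21.0% and 23.6% of all genes, and 5 passed without Naive 1. The calmodulin gene Calm3 rose (1.25 ± 0.32, FDR = 0.0117, edgeR). Calmodulin genes are similar in sequence, and how the counting divided reads between them was not tested. Camkk1, a kinase that calmodulin activates, fell from 7.51 ± 3.39 to 1.11 ± 0.54 CPM (-2.75 ± 0.54, FDR = 0.00435), and Akap5, an anchoring protein that binds calcineurin, from 5.25 ± 2.8 to 0.917 ± 0.327 CPM (-2.51 ± 0.65, FDR = 0.0123, edgeR). In Ag against Naive 1 of 21 passed, beside 6.71% of all genes. This was the kinase gene Camkk2, at 17.6 ± 5.53 against 29 ± 3.29 CPM (-0.72 ± 0.18, FDR = 0.0324, edgeR). There 0 passed without any 1 of Naive 1, Naive 3, Naive 4, Ag 5, Ag+Costim 3 or Ag+Costim 5.

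Among 10 other ion channels 1 rose and 4 fell in Ag+Costim against Naive, 5 of 10 beside 44.7% of all genes. P2rx7 and P2rx4, ATP-gated channels that pass calcium, fell, with log2 differences of -1.95 ± 0.42 (FDR = 0.00638) and -1.49 ± 0.36 (FDR = 0.0092, edgeR). Trpv2, a channel of the TRP family, rose from 131 ± 13.9 CPM in Naive to 191 ± 6.33 CPM in Ag+Costim (0.54 ± 0.11, FDR = 0.00478) and to 195 ± 28.6 CPM in Ag (0.57 ± 0.11, FDR = 0.013, edgeR). Kcna3, a potassium channel that keeps the membrane potential that drives calcium entry, was at 25 ± 11.5 CPM in Ag against 58.6 ± 15.4 CPM in Naive (-1.23 ± 0.30, FDR = 0.0275, edgeR). In Ag against Naive 1 of these 10 rose and 1 fell, beside 6.71% of all genes called, and 0 passed without Ag 2 or without Ag+Costim 4.

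**Figure D5:**
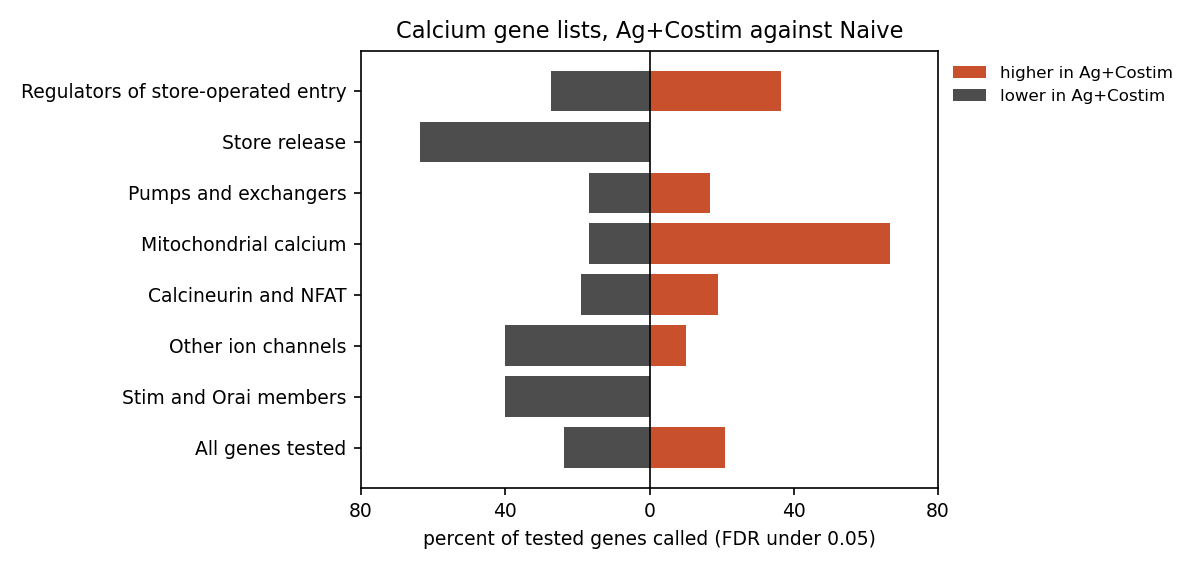
Percent of the tested genes of each calcium list called higher (right) or lower (left) in Ag+Costim than in Naive (x axis, edgeR FDR under 0.05), with the 5 Stim and Orai genes and all 17366 genes tested below. Store release has 7 of 11 genes lower and none higher, and mitochondrial calcium 8 of 12 higher, beside 23.6% lower and 21.0% higher over all genes.

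The genes whose profile over the 15 libraries was most like that of each member were searched for among 9683 named genes with a mean of at least 5 CPM, by the root-mean-square difference of log2 CPM after centring each gene on its own mean. For Orai2 these were Rhoh, at a difference of 0.108, and Lmbr1l, at 0.127, where the median over all searched genes was 0.777. For Stim1 they were Kdm3a at 0.111 and Akap13 at 0.121, with a median of 0.672. Rhoh, for comparison, stood at 391 CPM in Naive, 236 in the Ag group and 150 in Ag+Costim as means.

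The other members had less close neighbours on the same measure. For Stim2 they were Phtf1 (0.145) and Map7d1 (0.164), for Orai1 Trim30a (0.185) and Samd10 (0.191), and for Orai3 Manba (0.139) and Phyh (0.143), with medians over all searched genes of 0.511 to 0.543. The libraries these profiles share differ in depth, lane and group, and no test was run on likeness.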

How the data were processed

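The members and the gene lists were chosen with earlier results of these data known. Poly(A) RNA of 15 libraries was made with SMART-Seq v4 and Nextera XT, a kit that does not mark strand, and read in 50-base reads per the labels. The authors aligned the reads to mm10 with HISAT2 2.1.0 and SAMtools 1.9 and deposited StringTie 2.1.0 estimated counts per gene and per transcript and FPKM values per transcript; the submitters' processing notes also name R 4.0.5 and DESeq2 1.30.1. The estimated counts divide reads between overlapping transcripts, so shares of near-identical transcripts are less certain than gene totals. The deposited quality table gave the reads per library as counts and the percent of reads aligned. Of the 81881 entries for genes, 55536 matched GENCODE vM21 (GRCm38), from which names, structures and the printed sequences came; 26248 entries named by a number alone, with 0.0818% of counts, were left out. The FPKM columns of Ag 1 and Naive 5 were identical, so both libraries were left out of every FPKM fit.

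Genes were tested with edgeR 4.0.16 (R 4.3.3; TMM, filterByExpr, robust quasi-likelihood, 1 coefficient per group over all 15 libraries, Benjamini-Hochberg over 17366 genes, FDR threshold 0.05) and transcript usage with diffSpliceDGE over 7501 genes. A usage call needed a gene and a transcript under the threshold and a share change of at least 0.1. IsoformSwitchAnalyzeR, which the study used, was not run here. The leading transcript of Stim1, Stim2, Orai1 and Orai3 was compared by exact permutation tests (scipy 1.17.1). limma 3.58.1 and DESeq2 1.42.0 served as alternatives. The fits were run on simulated data whose spread between libraries was smaller than that of these libraries. The simulation held no lane effect and no division of reads between transcripts, so it does not show how the fits perform here. Within each group the counts of any 2 libraries differed by more than sampling noise (chi-square per degree of freedom at least 5.62), so no 2 were counted as 1 sample. Pairs across groups were not compared this way. The study's methods call its data points individual biological replicates, but the labels do not tie libraries to mice, so p-values measure the spread between these libraries. Approximate 95% intervals of log2 differences come from the SE under a normal approximation.

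Named were all members; each of their transcripts with a mean share of at least 0.05 in a group; per list and comparison up to 2 genes from each end of the log2 differences among those called, given a mean of 5 CPM or more in either group; and the 2 genes most like each member. The values of 1 gene that this rule names are not reported here. Median log2 differences over all genes were 0.08 (Ag against Naive), -0.10 (Ag+Costim against Ag) and -0.08 (Ag+Costim against Naive). Alternatives were other scalings, filters, tools and sample sets, each library left out in turn, lane, the replicate block, per-kilobase and pooled shares, and FPKM.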

Additional observations from a re-analysis of the deposited data

Results flagged for a closer look

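In 48 groups of 5 libraries (the CPM of each member and the share of each named transcript) the most extreme library was set against Dixon's critical value of 0.71, which chance passes in about 1 of 20 groups, or 2.4 groups here; 11 groups passed it. A gap can be past that value in a group whose shares are all close together.

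Stim2 in Naive 5 was 59.7 CPM against 26.3 to 31.5 CPM in the other Naive libraries; the myeloid marker sum in that library was 1124 CPM against at most 269 CPM, and the part of either in the other was not tested. The Orai2-203 share in Naive 5 was 0.050 against 0.028 to 0.030. In Ag 2 the Stim2-204 share was 0.807 against 0.000 to 0.002 and the Stim2-201 share 0.189 against 0.988 to 0.998, which are the same counts seen from both transcripts.

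The other groups concerned small shares. Orai3-203 held 0.103 in Naive 3 against 0.003 to 0.013 and 0.071 in Ag 5 against 0.011 to 0.017, with the Orai3-201 share at 0.897 and 0.929 in the same libraries. Stim1-203 held 0.041 in Ag+Costim 1 against 0.027 to 0.029. The Stim2-201 share was 0.977 in Ag+Costim 5 against 0.994 to 0.998, and the Stim2-204 share was 0.019 in Naive 1 against at most 0.005.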

How the results depend on the processing

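Lower Orai2 and Stim1 in Ag+Costim than in Naive were called under each single-library omission (log2 differences of -1.47 to -1.17 and -1.14 to -0.91, edgeR FDR at most 0.0383). Of 373 tested alternative values for the members' log2 differences, 335 kept their direction and call. Of 192 tested share differences of leading transcripts, 183 kept their direction and passed no test. In these exact permutation tests a pass was hardly possible. The smallest p that 5 against 5 allows, 0.00794, became 0.0952 for Stim1-201 after adjustment, so passing no test says little about stability. Values that differ rest on 5 libraries a group, lane and group cannot be told apart between Naive and Ag, and low-count transcripts limit the shares. Where a cause is not given by the alternative itself, the cause was not tested.

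With lane as a term, Ag+Costim against Naive gave -1.45 for Orai2 (FDR = 0.0591) and -1.09 for Stim1 (FDR = 0.0631), Ag against Naive reversed to -0.26 for Orai1 and -0.04 for Stim2, and the calcium lists had 0 called genes in Ag against Naive and 7 in Ag+Costim against Naive (edgeR). Within lane 3 Orai1 passed in Ag+Costim against Naive at -0.58. Without the filter Stim1 gave -0.89 in Ag+Costim against Naive (FDR = 0.0631) and 0.04 in Ag+Costim against Ag, and its usage FDR in Ag+Costim against Naive was 0.00806, against 0.00909 with limma diffSplice. limma voom called Orai1 (-0.78), Orai3 (-0.92) and Stim1 (-0.56) in Ag+Costim against Ag, Orai3 (0.63) and Stim1 (-0.62) in Ag against Naive, and Orai3 (-0.29) and Stim2 (0.64) in Ag+Costim against Naive. DESeq2 called Stim1 in Ag against Naive (-0.85), 17 list genes there (beside 15.8% of all genes) and 11 in Ag+Costim against Ag (beside 14.6%). With the 10 libraries of the comparison alone Orai3 passed in Ag+Costim against Naive (-0.36).

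Without Ag 3 and Naive 5, an alternative chosen after seeing the data, Stim1 (-0.85) and Stim2 (0.58) passed in Ag against Naive and Stim2 (0.75) in Ag+Costim against Naive. In FPKM with pseudocounts of 1 and 0.1, on the log2(FPKM + pseudocount) scale, Ag against Naive gave -0.0041 and -0.008 for Orai1, -0.07 and -0.08 for Orai3 and -0.15 and -0.24 for Stim2, all reversed, -1.33 and -1.38 for Orai2 and -1.31 and -1.35 for Stim1, both then called (limma), and Ag+Costim against Ag gave -0.05 and -0.05 for Orai2. Ag 1, among the highest Ag libraries for Orai1, Orai2, Orai3 and Stim1, is absent from these fits. With shares per kilobase the Orai2-202 share difference between Ag+Costim and Naive was -0.681 in place of -0.807. FPKM shares of transcripts were not run, since those rows name no transcript.

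Leaving out each library in turn gave, in Ag against Naive, -1.0 to -0.62 for Orai2, -1.01 to -0.69 for Stim1, 0.12 to 0.50 for Stim2 and 4 to 23 list genes; in Ag+Costim against Ag, -0.67 to -0.39 for Orai3 and 0 to 17 list genes; and 0.26 to 0.68 for Stim2 in Ag+Costim against Naive. Share differences that changed sign ran from -0.005 to 0.008 (Orai1-202), -0.008 to 0.021 (Orai3-201) and -0.200 to 0.002 (Stim2-201) in Ag against Naive, and for Stim2-201 from -0.00089 to 0.201 in Ag+Costim against Ag and -0.003 to 0.005 in Ag+Costim against Naive.

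Same-numbered libraries showed no shared deviation throughout (correlations of -0.32 to 0.47, over 0.1 in 5 of 15 pairs, 5 libraries closest to their own number). For Ag against Naive the correlations were 0.42, -0.12, -0.32, 0.47 and 0.41 for numbers 1 to 5. A pairing by number was thus neither shown nor excluded, and the main fit used none. With the replicate block Stim1 was called in Ag against Naive (-0.87, FDR = 0.033, edgeR), 14 list genes were called there, and no other member's call changed. Over all genes edgeR called 529 higher and 636 lower in Ag against Naive, 755 and 905 with the block, 1275 and 1461 with DESeq2, 0 with lane as a term, 92 and 163 without Naive 1, and 2270 and 1601 without Naive 5. In Ag+Costim against Ag the counts were 5 and 1, 0 with the block or lane, 664 and 1869 with DESeq2, 965 and 1714 without Ag 2, and 756 and 2817 without Ag 5. In Ag+Costim against Naive they were 3648 and 4107, 258 and 685 with lane, and 1413 and 2479 without Naive 4. Scaling by library totals alone moved the median of all genes there from -0.08 to -0.23.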
